A study of Mus musculus with 5 samples.

Results

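The melanocyte and pigment genes described here are 10 symbols, Tyr, Tyrp1, Dct, Pmel, Mlana, Mitf, Kit, Mc1r, Slc45a2 and Oca2, taken by name from a table of mouse epidermal transcripts whose values were summed per gene. They matched 11 of the 21667 gene IDs in the table, because Slc45a2 was listed under 2 IDs. Of these 11 IDs, 10 reached at least 1 CPM (read counts scaled to library size) in at least 2 libraries and were tested among 13764 genes, and Oca2 did not.

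The libraries came from the total epidermis of the back of wildtype C57BL/6 male mice at postnatal day 49, freed from the skin by dissection and trypsin. There were 2 libraries from skin given forskolin at 10 µM, 2 from skin given cAMP at 1.325 mM and 1 control labelled untreated. All mice were shaved at 7 weeks and, where treated, received the compound in DMSO and a lotion 3 times over 5 days. The series asks how Creb, the transcription factor that answers cAMP, could speed up the hair cycle, and the labels say neither whether the control received the lotion nor whether the 2 libraries of a treatment came from separate animals.

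Melanocytes make melanin in organelles called melanosomes, and in furred mouse skin most of them sit in the hair follicles, where pigment is made during the growth phase of the hair cycle. The melanocortin receptor Mc1r raises cAMP in these cells, protein kinase A then acts on Creb, and Creb can switch on Mitf, the transcription factor that binds the promoters of the pigment enzymes. Forskolin activates adenylyl cyclase, the enzyme that makes cAMP, so both treatments enter this route downstream of the receptor.

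RefSeq promoter windows on GRCm38.p6, each the 250 bases before an annotated start, matched 7 of the 10 symbols. The windows of the 3 pigment enzymes are shown because they carry the letters that Mitf is known to bind, and the most downstream of 3 Mitf windows because it carries the letters of a full cAMP response element. Capitals mark CATGTG or its reverse complement CACATG, the longer run AGTCATGTGCT that the Tyr and Tyrp1 windows share around CATGTG, known as the M-box, and TGACGTCA, each searched on both strands.
Tyr, chr7:87493513-87493762, minus strand: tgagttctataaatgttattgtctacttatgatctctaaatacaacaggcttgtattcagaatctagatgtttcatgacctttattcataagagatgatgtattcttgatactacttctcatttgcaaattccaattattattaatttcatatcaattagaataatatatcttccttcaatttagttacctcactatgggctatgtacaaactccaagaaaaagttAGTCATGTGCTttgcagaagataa
Tyrp1, chr4:80833963-80834212, plus strand: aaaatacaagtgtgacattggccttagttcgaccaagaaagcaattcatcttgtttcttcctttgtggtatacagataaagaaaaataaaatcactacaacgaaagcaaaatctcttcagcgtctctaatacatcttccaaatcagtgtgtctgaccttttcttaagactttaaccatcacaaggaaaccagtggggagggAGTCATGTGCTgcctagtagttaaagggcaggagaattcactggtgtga
Dct, chr14:118052247-118052496, minus strand: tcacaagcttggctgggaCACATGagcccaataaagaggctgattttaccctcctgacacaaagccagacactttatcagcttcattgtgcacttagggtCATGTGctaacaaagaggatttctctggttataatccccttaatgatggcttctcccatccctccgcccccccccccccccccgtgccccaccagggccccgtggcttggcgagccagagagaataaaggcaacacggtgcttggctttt
Mitf, chr6:97991533-97991782, plus strand: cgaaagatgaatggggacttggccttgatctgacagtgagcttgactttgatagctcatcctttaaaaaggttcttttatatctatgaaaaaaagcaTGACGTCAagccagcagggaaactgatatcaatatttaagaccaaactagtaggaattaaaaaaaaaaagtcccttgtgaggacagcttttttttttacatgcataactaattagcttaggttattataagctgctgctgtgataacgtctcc

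The full M-box began 24 bases before the RefSeq start of Tyr and 49 bases before that of Tyrp1. These starts are not the gene limits of the deposited table, where the minus-strand Tyr begins at 87493411 and Tyrp1 at 80834123, inside its window. The M-box was in 7 of 32851 mouse promoter windows (0.0213%). The run was defined from the Tyr and Tyrp1 windows, so both are among the 7 by construction and nothing is read from that share. Dct held CATGTG at 150 bases and its reverse complement at 232 bases before the start. The run around the former differs from the full M-box in its first letter. CATGTG in either direction also lay in the windows of Mc1r (62 and 51 bases before the start) and Oca2 (186 bases), and was in 12.3% of all windows. TGACGTCA began 153 bases before the third Mitf start and was in 1.55% of all windows. The windows of Kit held none of the letters searched, nor did the 2 other windows of Mitf, and CACGTG, in 6.02% of all windows, was in none of the matched windows. A match is a description of letters in these windows and not a site shown to be bound.

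The control library stood apart from the 4 treated ones, and this touches each comparison with it. Mitochondrial genes took 50.7% and 45.6% of the listed values with forskolin and 43.2% and 58.1% with cAMP, against 69.3% in the control. Leaving out pseudogenes and rRNA, nuclear genes held 31.4% and 34.8% with forskolin and 38% and 26.0% with cAMP, against 7.9% in the control. In CPM as deposited, the median tested gene was 1.69 log2 units higher with forskolin and 1.66 higher with cAMP. The tests against the control are given on that scale and after dividing each library by a median-of-ratios size factor (1.42 and 1.31 with forskolin, 1.65 and 1.12 with cAMP, 0.317 in the control), which brings those medians to 0.18 and 0.16. Estimated depth was 34200000 to 51700000 reads, and 1 read was worth 0.0194 to 0.0293 CPM.

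As a set, the pigment genes were listed at higher CPM in the treated libraries, with Dct, Tyrp1, Pmel, Mitf and Kit passing the test in both comparisons with the control. The 10 symbols summed to 98.2 and 246 CPM with forskolin and 249 and 259 CPM with cAMP, against 27.7 CPM in the control. With size factors the sums were 69.0 and 187 with forskolin and 151 and 231 with cAMP, against 87.4 in the control, so that forskolin 1 then lay below the control and the 3 other treated libraries above it. In bulk RNA, fewer pigment cells and less pigment RNA per cell cannot be told apart.

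For forskolin against the control, limma called 5 of the 10 tested IDs higher and none lower in CPM as deposited, where 66.3% of all tested genes were called higher and 0.341% lower. The median log2 difference of the tested IDs was 1.2, against 1.69 for all genes, and with genes unread in the control at their lower bounds it was 2.30, against 1.87 for all genes. With size factors none of the 10 was called in either direction, none had an unadjusted p under 0.05 in limma, and 14.4% of all genes were called higher and 7.39% lower. The median was then 0.47, or 0.53 with the bounds, against 0.18 for all genes either way. Mc1r and both Slc45a2 IDs reached 1 CPM only in treated libraries and entered the test through them, so these medians and counts describe the set and nothing is read from them.

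For cAMP against the control, limma also called 5 of the 10 higher and none lower in CPM as deposited, where 65.1% of all genes were called higher and 0.436% lower. The median was 1.42, against 1.66 for all genes, and with the bounds 2.78, against 1.85. With size factors Tyrp1 and Dct were called higher and none lower, neither of them once cAMP 1 or cAMP 2 was left out, 3 had an unadjusted p under 0.05, and 14.8% of all genes were called higher and 7.78% lower. That median was 0.90, or 1.11 with the bounds, against 0.16 for all genes either way. Both comparisons rest on the same control library, whose own spread could not be measured and was taken to be that of the treated libraries.

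**Figure D1:**
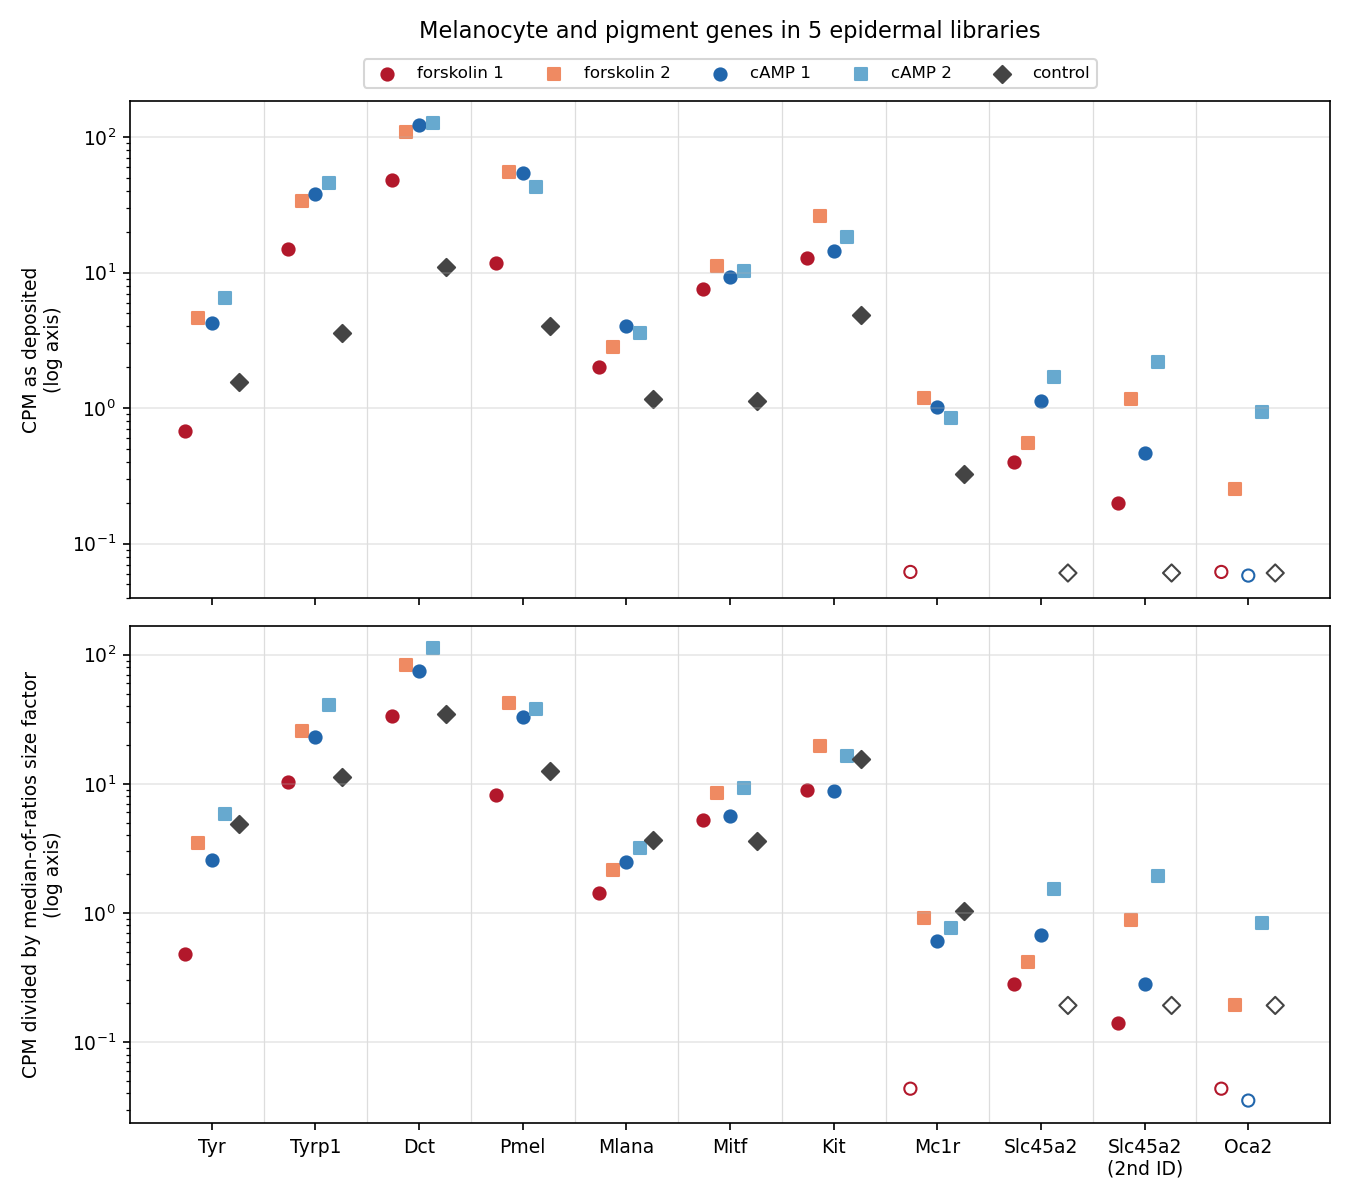
Level of each pigment gene in each library, in CPM as deposited (top) and in CPM divided by the size factor (bottom), both on log axes. Each symbol is 1 library, and open symbols stand at the 3-read floor of a library listed under 3 reads. In the top panel the control lies below the 4 treated libraries in 8 of the 10 tested IDs, and in the bottom panel in 3, a control at 0 reads counting as below.

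In the plot of levels by library, the control was below every treated library in 8 of the 10 tested IDs as deposited, and 88.7% of all tested genes had this order. With size factors it was so in 3 of 10, against 40.9% of all genes. Of these 3, both Slc45a2 IDs passed the filter through treated libraries alone, so nothing is read from their order, which leaves Mitf.

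Dct (ENSMUSG00000022129; chromosome 14, 118012792 to 118052246, minus strand), the dopachrome tautomerase that shapes the precursors of brown and black melanin, was the most abundant of the set. It stood at 48.1 and 109 CPM with forskolin and 123 and 126 CPM with cAMP, against 11 CPM in the control. Both treatments lay above the control in every library, and both cAMP libraries lay above both forskolin libraries.

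Dct rose by 2.61 ± 0.58 log2 units with forskolin (SE, limma adjusted p = 6.55e-05) and by 3.38 ± 0.58 with cAMP (limma adjusted p = 3.57e-07), with 1 added to each CPM before the logarithm, so that the change of a low gene is understated. With size factors the values were 33.8 and 83.1 with forskolin and 74.3 and 112 with cAMP, against 34.8 in the control. Forskolin 1 then stood level with the control, and the forskolin difference was 0.60 (95% interval -0.38 to 1.58, limma adjusted p = 0.365). The rise with cAMP was 1.37 with size factors (limma adjusted p = 0.0426), and it no longer passed without cAMP 1 (1.66, limma adjusted p = 0.0801) or without cAMP 2 (1.07, limma adjusted p = 0.22).

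Tyrp1 (ENSMUSG00000005994; chromosome 4, 80834123 to 80851719, plus strand), a melanosomal protein related to tyrosinase that stabilises it and acts late in eumelanin synthesis, followed Dct in its order of libraries. It was at 14.8 and 33.5 CPM with forskolin and 37.7 and 45.8 CPM with cAMP, against 3.56 CPM in the control. It rose by 2.35 ± 0.58 log2 units with forskolin (limma adjusted p = 0.000249) and by 3.22 ± 0.58 with cAMP (limma adjusted p = 8.82e-07). With size factors it was at 10.4 and 25.5 with forskolin and 22.9 and 41.0 with cAMP, against 11.2 in the control. Here too forskolin 1 was at the control's level, and limma called the cAMP rise of 1.37 (adjusted p = 0.0491) but not the forskolin difference of 0.51 (95% interval -0.51 to 1.52, adjusted p = 0.462). That call too was lost without cAMP 1 (1.78, limma adjusted p = 0.0609) or without cAMP 2 (0.96, limma adjusted p = 0.262).

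Tyr (ENSMUSG00000004651; chromosome 7, 87427405 to 87493411, minus strand) encodes tyrosinase, the enzyme that makes the first and rate-limiting step of melanin synthesis. It was at 0.68 and 4.59 CPM with forskolin and 4.24 and 6.5 CPM with cAMP, against 1.56 CPM in the control. Forskolin 1 was the only treated library below the control. Tyr passed in neither comparison: the difference was 0.26 with forskolin (95% interval -0.98 to 1.5, limma adjusted p = 0.705) and 1.29 with cAMP (95% interval 0.06 to 2.53, limma adjusted p = 0.0599). With size factors it was -1.2 with forskolin and -0.26 with cAMP, so its sign depends on the scaling.

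Pmel (ENSMUSG00000025359; chromosome 10, 128706258 to 128720238, plus strand) encodes the protein of the fibrils on which melanin is laid down inside the melanosome. It was at 11.7 and 55.5 CPM with forskolin and 54.4 and 42.8 CPM with cAMP, against 4.0 CPM in the control. The 2 forskolin libraries lay on either side of the cAMP pair, so the treatments overlapped. Pmel rose by 2.42 ± 0.58 log2 units with forskolin (limma adjusted p = 0.000197) and by 3.30 ± 0.58 with cAMP (limma adjusted p = 6.19e-07). With size factors neither difference passed, at 0.55 with forskolin (limma adjusted p = 0.517) and 1.42 with cAMP (limma adjusted p = 0.0918). Pmel shares 105 exonic bases with Dgka on the opposite strand, and since the strand setting of the counting is not given in the sources used here, its values are uncertain by the reads that fell there.

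Mlana (ENSMUSG00000024806; chromosome 19, 29697921 to 29708448, plus strand), a small membrane protein that helps Pmel mature, was at 2.02 and 2.82 CPM with forskolin and 4.06 and 3.57 CPM with cAMP, against 1.17 CPM in the control. All treated libraries lay above the control, and both cAMP libraries above both forskolin libraries. The difference did not pass with forskolin (0.64, 95% interval -0.60 to 1.88, limma adjusted p = 0.347) or with cAMP (1.15, 95% interval -0.10 to 2.39, limma adjusted p = 0.0962). With size factors the control was the highest library, and the differences were -0.77 and -0.30.

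Mitf (ENSMUSG00000035158; chromosome 6, 97807058 to 98021349, plus strand) is the factor that directs the pigment programme. It was at 7.53 and 11.2 CPM with forskolin and 9.25 and 10.3 CPM with cAMP, against 1.13 CPM in the control. It rose by 2.26 ± 0.59 log2 units with forskolin (limma adjusted p = 0.000568) and by 2.34 ± 0.59 with cAMP (limma adjusted p = 0.000374). With size factors it was at 5.29 and 8.5 with forskolin and 5.6 and 9.25 with cAMP, against 3.58 in the control. The control thus remained the lowest library on both scales, but the differences of 0.76 with forskolin (limma adjusted p = 0.243) and 0.85 with cAMP (limma adjusted p = 0.196) no longer passed.

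Kit (ENSMUSG00000005672; chromosome 5, 75574916 to 75656722, plus strand), the receptor tyrosine kinase that melanocytes and mast cells need to survive and migrate, was at 12.8 and 25.9 CPM with forskolin and 14.5 and 18.4 CPM with cAMP, against 4.9 CPM in the control. As deposited, the 2 forskolin libraries enclosed the cAMP pair. Kit rose by 1.71 ± 0.58 log2 units with forskolin (limma adjusted p = 0.00721) and by 1.56 ± 0.58 with cAMP (limma adjusted p = 0.014) as deposited. With size factors the differences were -0.20 with forskolin and -0.33 with cAMP (limma adjusted p = 0.791 and 0.641), so that the sign of the summed gene depends on the scaling.

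Mc1r (ENSMUSG00000074037; chromosome 8, 123407107 to 123410744, plus strand), the melanocortin receptor itself, was near the limit of detection. It was at 0.0206 CPM, or 1 estimated read, in forskolin 1 and 1.19 CPM in forskolin 2, at 1.01 and 0.849 CPM with cAMP, and at 0.326 CPM, or 16.1 estimated reads, in the control. As deposited, the 2 forskolin libraries were thus the lowest and the highest of all 5. With size factors the control was the highest, at 1.03 against 0.906 in forskolin 2. Neither difference passed, at 0.17 with forskolin (95% interval -1.23 to 1.58, limma adjusted p = 0.827) and 0.54 with cAMP (95% interval -0.87 to 1.94, limma adjusted p = 0.491). With size factors the differences were -0.55 with forskolin (limma adjusted p = 0.505) and -0.27 with cAMP (limma adjusted p = 0.759), so its sign depends on the scaling. Mc1r shares 653 exonic bases with Gm38092 on the opposite strand, so its few reads are also uncertain in origin.

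Slc45a2, a transporter of the melanosome membrane that keeps its interior from turning acidic, was listed under 2 overlapping IDs on chromosome 15, and the split of reads between them is uncertain. The first (ENSMUSG00000022243, 11000721 to 11029233) was at 0.398 and 0.55 CPM with forskolin and 1.12 and 1.7 CPM with cAMP, and listed at 0 reads in the control. The second (ENSMUSG00000102823, 11000817 to 11027939) was at 0.2 and 1.16 CPM with forskolin and 0.466 and 2.17 CPM with cAMP, and again at 0 reads in the control. Every treated library held reads of both and the control held none.

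Summed over both IDs, Slc45a2 was at 0.598 and 1.71 CPM with forskolin and 1.59 and 3.86 CPM with cAMP. Against a floor of 3 reads in the control (0.0607 CPM), the mean of the first ID was at least 7.8-fold higher with forskolin and at least 23.2-fold higher with cAMP. With size factors these bounds were at least 1.82-fold and 5.73-fold, and the control's floor was 0.192. For the second ID they were at least 11.2-fold and 21.7-fold as deposited, and at least 2.68-fold and 5.8-fold with size factors. For the second ID the libraries of a treatment differed, with bounds from each library alone of 3.29-fold and 19.2-fold with forskolin and 7.66-fold and 35.7-fold with cAMP as deposited. With size factors, the bounds from each library alone for the first ID were 1.46-fold and 2.18-fold with forskolin and 3.54-fold and 7.92-fold with cAMP. For the second they were 0.733-fold and 4.62-fold with forskolin and 1.47-fold and 10.1-fold with cAMP. Forskolin 1, at 0.14 for that ID, lay under the floor. Both IDs reached 1 CPM only in treated libraries and passed the filter through them, so nothing is read from these bounds. Such bounds cover counting error only, and limma called neither ID in either comparison (adjusted p = 0.105 to 0.469 as deposited).

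Oca2 (ENSMUSG00000030450; chromosome 7, 56239760 to 56536517, plus strand), a melanosomal membrane protein that affects the pH of the organelle, was read in only 1 library of each treatment. It was at 0 and 0.254 CPM with forskolin and 0 and 0.936 CPM with cAMP, against 0 CPM in the control. In forskolin 2 its 12.9 estimated reads lay in the coding transcript, and in cAMP 2 its 32 reads lay almost wholly in a transcript annotated for nonsense-mediated decay. A count of 0 allows up to 3 reads, or 0.0618 CPM in forskolin 1, 0.0581 CPM in cAMP 1 and 0.0607 CPM in the control.

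**Figure D2:**
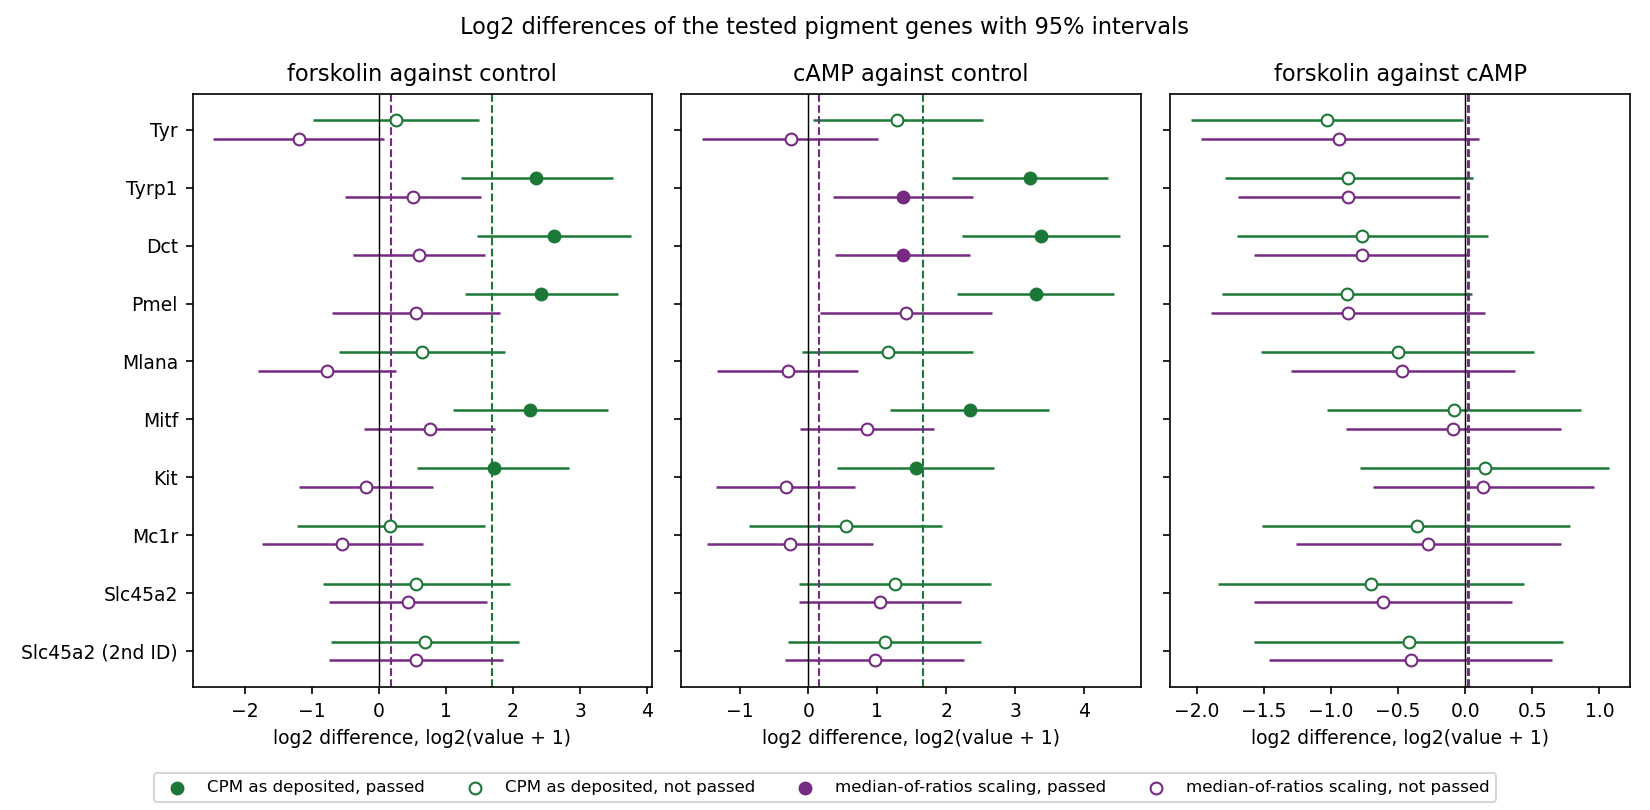
Log2 difference of each tested pigment gene in the 3 comparisons, on the log2(value + 1) scale, with 95% intervals from limma. Green is CPM as deposited and purple is with size factors, filled points passed at an adjusted p under 0.05, and dashed lines stand at the median of all tested genes (1.69 and 0.18 for forskolin against control). Dct, Tyrp1, Pmel, Mitf and Kit passed against the control as deposited, Dct and Tyrp1 with cAMP also passed with size factors, and no gene passed between the treatments.

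As the plot of log2 differences shows, Dct, Tyrp1 and Pmel lay farthest above zero against the control on the deposited scale. Beside the whole table's medians of 1.69 and 1.66, Tyr, Mlana, Mc1r and both Slc45a2 IDs lay below the median gene in both comparisons, although those near or under 1 CPM cannot show a large difference with a pseudocount of 1.

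The make-up of the set does not depend on the scaling between libraries. Dct took 49.0% and 44.4% of the summed CPM of the 10 symbols with forskolin and 49.2% and 48.6% with cAMP, against 39.8% in the control (exact Clopper-Pearson 95% interval 37.2% to 42.5%). Tyr took 0.7% and 1.9% with forskolin and 1.7% and 2.5% with cAMP, against 5.6% in the control (4.5% to 7.0%). Mlana took 2.1% and 1.1% with forskolin and 1.6% and 1.4% with cAMP, against 4.2% in the control (3.2% to 5.4%). The control thus held relatively more Tyr and Mlana and less Dct than each treated library.

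Kit took 13% and 10.5% of the sum with forskolin and 5.8% and 7.1% with cAMP, against 17.7% in the control (15.7% to 19.8%). The share of Pmel was 11.9% and 22.6% with forskolin and 21.8% and 16.5% with cAMP, against 14.4% in the control (12.7% to 16.5%), so that the control lay within the treated range. Forskolin 1 had the highest share of Mitf, at 7.7% against 4.5% in forskolin 2, 3.7% and 4.0% with cAMP and 4.1% in the control. These intervals use estimated reads and cover counting error only, and with 1 control library they say nothing of the spread between animals.

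Genes were also set side by side per kilobase, with each transcript divided by its own length. Dct then led in every library. It was at 21.8 and 49.6 CPM per kb with forskolin and 55.7 and 57.0 with cAMP, against 5.01 in the control. Tyrp1 was at 12.4 and 23.9 CPM per kb with forskolin and 23.6 and 36.6 with cAMP, against 2.25 in the control. Pmel was at 5.49 and 26.0 CPM per kb with forskolin and 25.5 and 20.1 with cAMP, against 1.88 in the control. Tyrp1 and Pmel thus changed places between libraries, and their order is not settled.

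Kit (2.27 to 6.6 CPM per kb over the 5 libraries) and Mlana (1.3 to 4.49) overlapped them. Kit was above Pmel in forskolin 1 and in the control, and above Tyrp1 in the control. Short transcripts weigh heavily in such values, among them Kit-004 (392 bases) and Tyrp1-002 (529 bases). In the control the coding Kit transcripts were listed at 0 reads, so its Kit value came from transcripts with a retained intron. In forskolin 1 such a transcript, Kit-007, held 58.6% of Kit. These ranks are therefore not those of coding Kit. Mitf was at 0.232 to 2.88. Tyr was at 0.113 to 1.08 CPM per kb, a level understated where the annotated model used for its length is longer than the one in the table. Slc45a2 under its first ID was at 0.133 to 0.568 CPM per kb in the treated libraries and Mc1r at 0.00567 to 0.328 over all 5. Oca2 did not exceed 0.346 CPM per kb.

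**Figure D3:**
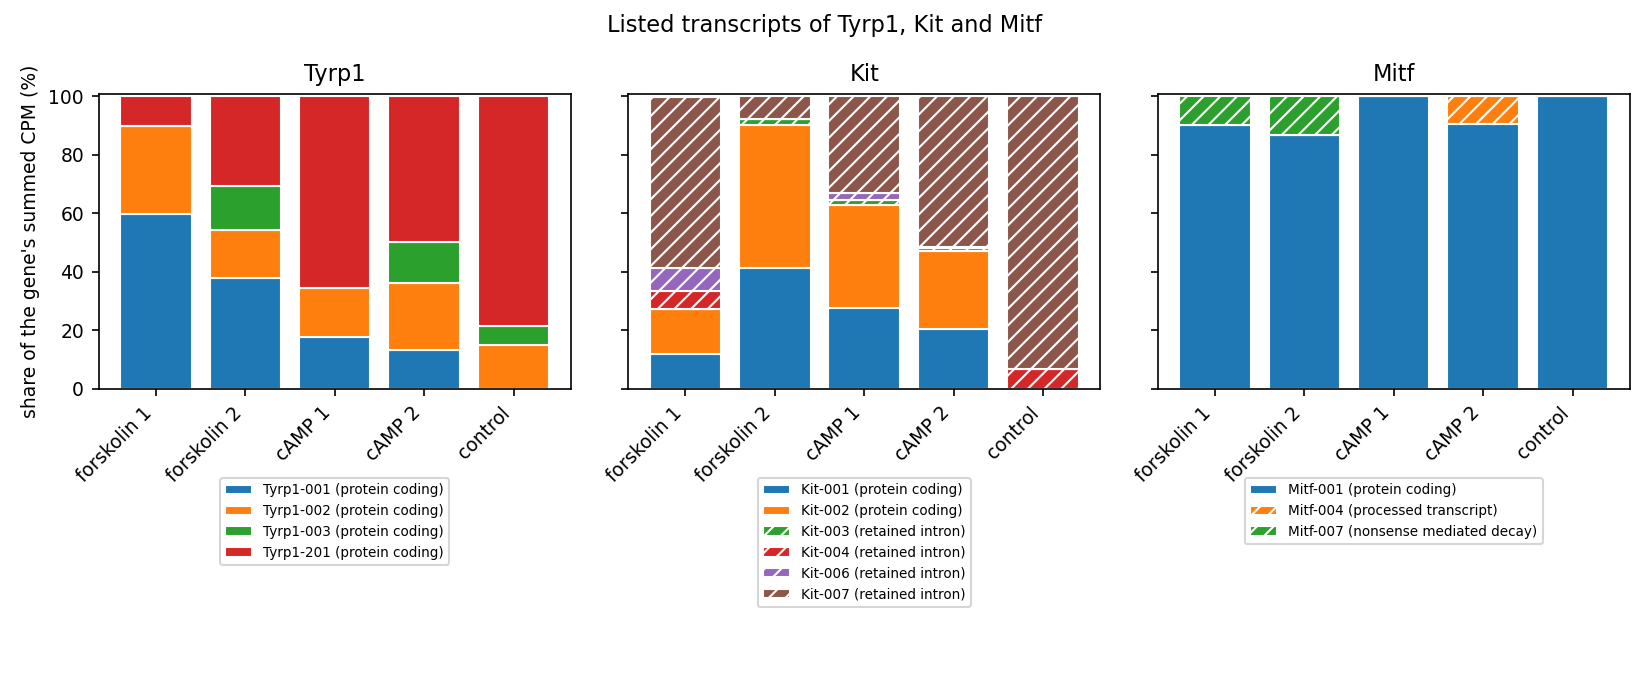
Share of each gene's summed CPM held by each listed transcript of Tyrp1, Kit and Mitf, in percent, in each library. Solid bars are protein-coding transcripts and hatched bars the other kinds. In the control, Kit-007 holds 93.4% of Kit and the coding Kit transcripts hold none, while Mitf-001 holds at least 86.8% of Mitf in every library.

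The listed transcripts of Kit differed between the control and the treated libraries. The 2 coding transcripts, Kit-001 and Kit-002, summed to 3.48 and 23.3 CPM with forskolin and 9.14 and 8.66 CPM with cAMP, and were listed at 0 reads in the control. Kit-007, a transcript with a retained intron at the 3′ end of the gene (75649094 to 75656694), was at 7.48 and 1.99 CPM with forskolin and 4.84 and 9.46 CPM with cAMP, against 4.58 CPM in the control. It held 58.6% and 7.7% of Kit with forskolin and 33.3% and 51.4% with cAMP, against 93.4% in the control.

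Against the 3-read floor the coding Kit transcripts were at least 221-fold higher with forskolin and at least 146-fold higher with cAMP as deposited, and at least 52.7-fold and 34.7-fold with size factors. Those folds are of group means, and the bounds from each library alone were 57.2-fold and 384-fold with forskolin and 150-fold and 143-fold with cAMP as deposited. With size factors they were 12.8-fold and 92.7-fold with forskolin and 28.9-fold and 40.5-fold with cAMP. Kit-007 shares 2722 of its 3175 bases with exons of the listed coding transcripts, so the split of reads between them is uncertain and these bounds cover counting error only. With coding transcripts only, the log2 difference of Kit was 3.38 with forskolin (limma adjusted p = 0.00036) and 3.31 with cAMP (limma adjusted p = 0.000438). In that setting 62.6% and 60.9% of all tested genes were called in either direction. Coding Kit reached 1 CPM only in treated libraries and passed the filter through them, so nothing is read from these differences or bounds.

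Tyrp1 also divided unevenly, as the plot of transcript shares shows. Tyrp1-201 held 10.1% and 30.5% with forskolin and 65.7% and 49.7% with cAMP, against 78.6% in the control, and Tyrp1-001 held 59.8% and 37.8% with forskolin and 17.6% and 13.3% with cAMP, against 0.0% in the control. Tyrp1-001 thus held more of the gene in both forskolin libraries than in both cAMP libraries, and this was not tested. The remaining transcript with at least 10% of the gene, Tyrp1-002, held 30.1% and 16.5% with forskolin and 16.7% and 22.7% with cAMP, against 14.8% in the control. Both long transcripts share almost all of their exonic bases, so here too the split is uncertain.

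Mitf-001, which starts at the most upstream promoter (97807058), held 90.1% and 86.8% of Mitf with forskolin, all of it in cAMP 1, 90.5% in cAMP 2 and all of it in the control. It was the only coding Mitf transcript listed. Most of each summed Mitf value was thus assigned to that start and not to the promoter window with TGACGTCA. Mitf-007, annotated for nonsense-mediated decay, starts at 97991819, next to the promoter window with TGACGTCA shown above. It was at 0.743 and 1.47 CPM with forskolin, or 36.0 and 74.8 estimated reads, and at 0 reads with cAMP and in the control. The 3 libraries without it include the control, whose Mitf total was 56.0 reads, and the difference was not tested. Of its 1649 bases, Mitf-007 shares 1514 with exons of the coding Mitf-001, so here too the split of reads is uncertain. The transcript was named after its values were seen.

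Forskolin against cAMP asks whether an activator of adenylyl cyclase and the messenger itself left different levels of pigment transcripts. The doses were 10 µM forskolin and 1.325 mM cAMP, and no pigment gene passed: limma called none of the 10 tested IDs in either direction, as deposited or with size factors, and 1 had an unadjusted p under 0.05 on each scale. Of all tested genes 0.189% were called higher and 0.189% lower as deposited, and 0.0944% and 0.254% with size factors. The difference was below zero in 9 of 10, with a median of -0.60 against 0.03 for all genes as deposited and -0.54 against 0.02 with size factors.

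The intervals were wide, so that the treatments are not shown to act alike. Tyr had the most negative difference, at -1.03 (95% interval -2.04 to -0.02, limma adjusted p = 0.716). The difference was -0.88 for Pmel (-1.81 to 0.05), -0.87 for Tyrp1 (-1.79 to 0.06) and -0.77 for Dct (-1.70 to 0.17). For Mitf it was -0.08 (-1.03 to 0.86) and for Kit 0.15 (-0.78 to 1.07). Both forskolin libraries lay below both cAMP libraries in 4 of 10 as deposited, namely Tyrp1, Dct, Mlana and the first Slc45a2 ID, against 17.0% of all genes, and in 2 of 10 with size factors, against 20.4%. The first Slc45a2 ID reached 1 CPM only in the 2 cAMP libraries, so its order was set by the filter.

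Forskolin 1 stood low within the treated libraries. It was the lowest of the 4 treated libraries in 10 of 10 tested IDs as deposited, where 18.8% of all tested genes had this order, and in 9 of 10 with size factors, where 25.2% did, Kit being the exception. Tyr, Mc1r and both Slc45a2 IDs reached 1 CPM only in libraries other than forskolin 1. The filter thus favoured this order for them, and nothing is read from it there. The others with this order on both scales were Tyrp1, Dct, Pmel, Mlana and Mitf. The pattern was chosen after the values were seen, and the genes share their cells and are not independent.

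Without forskolin 1, the forskolin difference from cAMP turned positive for Pmel (0.20), Mitf (0.18), Mc1r (0.19) and the second Slc45a2 ID (0.01). Without forskolin 2, only 2 IDs, Dct and Mitf, were called higher with forskolin than in the control as deposited, against 5 with both libraries, and 44.4% of all tested genes were called higher. With size factors, 2 were called without forskolin 1 (Dct and Pmel, both higher), where 12.5% of all genes were called higher. Without forskolin 2 only Tyr was called (-2.0 log2 units, limma adjusted p = 0.0191), where 4.93% of all genes were called lower. Also with size factors, leaving out forskolin 2 left 3 genes lower than with cAMP, Pmel at -1.98 (limma adjusted p = 0.00093), Dct at -1.41 (limma adjusted p = 0.0386) and Tyrp1 at -1.47 (limma adjusted p = 0.0415), where 0.952% of all genes were called lower.

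Dermal fibroblast and endothelial markers were also low in forskolin 1. The 10 markers summed to 11.2 and 203 CPM with forskolin and 109 and 263 CPM with cAMP, against 146 CPM in the control, or to 7.9 and 155 with forskolin and 66.2 and 236 with cAMP, against 461 in the control, with size factors. As deposited, forskolin 1 was the lowest treated library in 5 of the 6 such markers tested, where 18.8% of all tested genes had this order. Col1a2 and Lum reached 1 CPM only in libraries other than forskolin 1, so the filter favoured this order for them. Col1a1, a dermal collagen gene, had the order at 2.08 and 95.5 CPM with forskolin and 33.3 and 78.3 CPM with cAMP, against 40.2 CPM in the control. The keratinocyte markers summed to 9897 and 7847 CPM with forskolin and 9372 and 4373 CPM with cAMP, against 3345 CPM in the control. With size factors these sums were 6960 and 5968 with forskolin and 5676 and 3915 with cAMP, against 10549 in the control. The control was thus the lowest library in the keratinocyte sum as deposited and the highest with size factors. Among the 4 treated libraries, forskolin 1 was highest in that sum and lowest in the dermal and pigment sums on both scales. In 1 of 18 tested keratinocyte IDs forskolin 1 was the lowest treated library. The part of the dermal content in the pigment values was not tested.

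**Figure D4:**
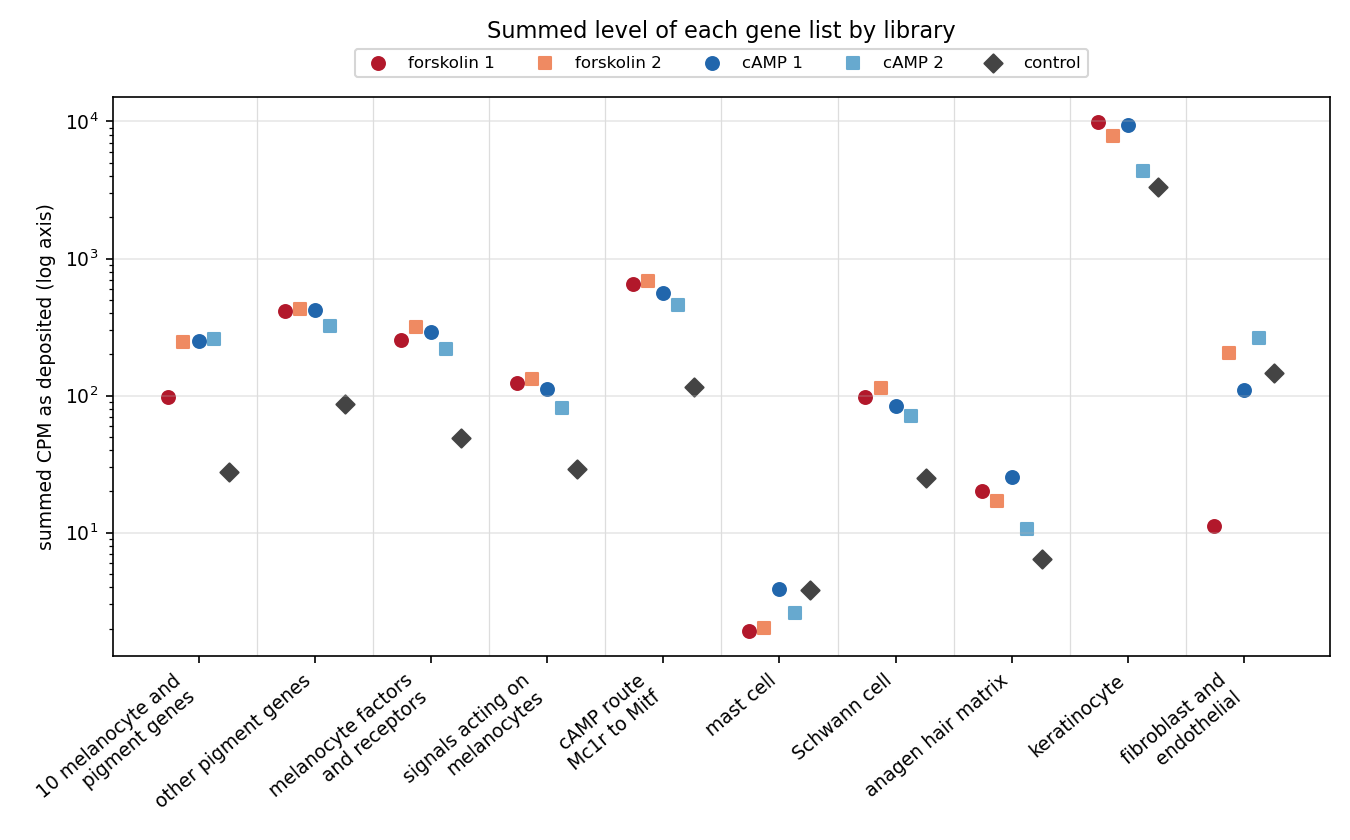
Summed CPM as deposited of each gene list in each library, on a log axis, with 1 symbol per library. Forskolin 1 is the lowest treated library for the 10 pigment genes (98.2 CPM) and for the dermal markers (11.2 CPM), and the highest library on this scale for the keratinocyte markers (9897 CPM).

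The plot of list sums places the pigment genes beside other cell types of skin. The basal keratins of the epidermis were abundant, with Krt5 at 2300 and 1620 CPM with forskolin and 1880 and 801 CPM with cAMP, against 535 CPM in the control, and Krt14 at 2000 and 1750 CPM with forskolin and 2460 and 1060 CPM with cAMP, against 271 CPM in the control. Krt14 rose with forskolin by 2.78 (limma adjusted p = 0.000366) and with cAMP by 2.57 (limma adjusted p = 0.000967) as deposited, but in neither comparison with size factors. Of the 18 keratinocyte IDs tested, 9 were called higher and 1 lower with forskolin and 1 higher and 1 lower with cAMP as deposited. The shares called higher, 50% and 5.56%, were below the 66.3% and 65.1% of all tested genes. The list holds 15 genes, and Flg was tested under several IDs, some unread in the control that passed the filter through treated libraries. With size factors, 2 were higher and 5 lower with forskolin and none higher and 9 lower with cAMP. Of all tested genes, 14.4% were then called higher and 7.39% lower with forskolin, and 14.8% and 7.78% with cAMP.

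Mast cells also carry Kit. The 9 listed mast cell markers summed to 1.93 and 2.03 CPM with forskolin and 3.88 and 2.61 CPM with cAMP, against 3.84 CPM in the control. With size factors the sums were 1.36 and 1.54 with forskolin and 2.35 and 2.34 with cAMP, against 12.1 in the control, the highest library. The protease genes Cpa3 and Tpsb2 did not exceed 0.556 and 0.0985 CPM in any library. In the control, Gata2 stood at 1.58 CPM and the protease genes Mcpt4 at 1.44 CPM and Cma1 at 0.506 CPM. The part of mast cells in the Kit values was not tested. The only mast cell marker tested, Mrgprb2, passed in no comparison. Schwann cell markers, which share Sox10 and Erbb3 with melanocytes, summed to 97.4 and 113 CPM with forskolin and 83.8 and 70.8 CPM with cAMP, against 25.2 CPM in the control, or to 68.5 and 85.6 with forskolin and 50.8 and 63.4 with cAMP, against 79.5 in the control, with size factors.

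Of 7 Schwann cell markers tested, 4 were called higher and none lower in each comparison with the control as deposited (57.1%, where 66.3% of all genes were called higher with forskolin and 65.1% with cAMP). With size factors Mbp, a myelin protein gene, was lower with forskolin (-1.30, limma adjusted p = 0.0298) and with cAMP (-1.94, limma adjusted p = 0.00261). The part of such cells in the pigment values was not tested.

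Hair growth genes were low in all libraries. The 16 listed genes of the growing hair matrix and hair shaft summed to 20 and 17.0 CPM with forskolin and 25.5 and 10.6 CPM with cAMP, against 6.46 CPM in the control, which is less than Dct alone in each library. These sums were 14.1 and 12.9 with forskolin and 15.4 and 9.46 with cAMP, against 20.4 in the control, with size factors. Of 7 tested, only Krt32 rose with forskolin as deposited (1.51, limma adjusted p = 0.0251), and none passed with cAMP. With size factors Krt28 was lower with forskolin (-1.76, limma adjusted p = 0.0244) and Tchh, a protein of the inner root sheath, was lower with cAMP (-1.44, limma adjusted p = 0.0435).

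Other genes of melanosome building and transport, 27 of them tested, were called higher in 20 with forskolin and 18 with cAMP as deposited and lower in none. These are 74.1% and 66.7%, near the 66.3% and 65.1% of all tested genes. With size factors 3 were higher (11.1%, where 14.4% and 14.8% of all genes were) and 1 lower in each comparison: Rabggta, Ap3d1 and Gpnmb rose and Ctns fell. Rabggta, a subunit of the enzyme that attaches lipid anchors to Rab proteins, was at 19.5 and 21.6 CPM with forskolin and 32.5 and 12.4 CPM with cAMP, against 0.648 CPM in the control. With size factors it rose by 2.40 with forskolin (limma adjusted p = 0.00113) and by 2.38 with cAMP (limma adjusted p = 0.000973). Rabggta also reached 1 CPM only in treated libraries and entered the test through them, so nothing is read from its calls.

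Gpnmb, a melanosomal glycoprotein related to Pmel, was at 19.7 and 26.3 CPM with forskolin and 24.6 and 23.6 CPM with cAMP, against 1.98 CPM in the control. It was higher on both scales, by 1.28 with forskolin (limma adjusted p = 0.0349) and by 1.37 with cAMP (limma adjusted p = 0.0239) with size factors. Ap3d1, a subunit of the adaptor complex that sorts cargo to melanosomes, rose with size factors by 1.75 with forskolin (limma adjusted p = 0.00397) and by 1.21 with cAMP (limma adjusted p = 0.0277). Rabggta and Ap3d1 are used by many cell types.

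Slc24a5, a melanosomal exchanger, was at 1.22 and 2.88 CPM with forskolin and 3.96 and 1.25 CPM with cAMP, against 0 reads in the control. Its difference as deposited was 1.55 with forskolin (limma adjusted p = 0.0331) and 1.74 with cAMP (limma adjusted p = 0.0174), and it passed in neither with size factors. Slc24a5 reached 1 CPM only in treated libraries and entered the test through them, so nothing is read from these differences. Gpr143, a receptor of the melanosome membrane, was at 0 and 0.532 CPM with forskolin and 0.348 and 0.614 CPM with cAMP, against 0 CPM in the control. Like Mc1r and Oca2 it was unread, or nearly so, in forskolin 1.

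The other melanocyte factors and receptors had a median log2 difference of 1.90 with forskolin and 1.83 with cAMP as deposited, against 1.69 and 1.66 for all genes. Of 15 tested, 11 were called higher with forskolin and 12 with cAMP as deposited. These are 73.3% and 80%, beside 66.3% and 65.1% of all tested genes. With size factors only Tfap2a was called higher (1.88 with forskolin, limma adjusted p = 0.00329, and 1.28 with cAMP, limma adjusted p = 0.0266). That is 6.67%, beside 14.4% and 14.8% of all genes. Tfap2a is a partner factor of Mitf that is also expressed in keratinocytes. Sox10, which activates Mitf in the melanocyte lineage, was at 5.11 and 12.8 CPM with forskolin and 8.65 and 4.92 CPM with cAMP, against 1.54 CPM in the control. It rose as deposited by 1.86 with forskolin (limma adjusted p = 0.00471) and by 1.57 with cAMP (limma adjusted p = 0.0162), with differences of 0.26 and -0.01 with size factors.

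Pax3, which acts with Sox10 on Mitf, was at 5.36 and 6.17 CPM with forskolin and 4.59 and 4.86 CPM with cAMP, against 1.34 CPM in the control. It rose as deposited with forskolin (1.53, limma adjusted p = 0.0208), while with cAMP the difference fell short of the threshold (1.29, limma adjusted p = 0.0511). Ednrb, the endothelin receptor of melanoblasts, was at 1.69 and 6.64 CPM with forskolin and 2.86 and 8.01 CPM with cAMP, against 1.26 CPM in the control. As deposited, forskolin 1 was the lowest treated library in 6 of the 15 factors and receptors and in 7 of the 27 other pigment genes. Of all tested genes 18.8% had this order. Among the factors, Mef2c and Irf4 reached 1 CPM only in libraries other than forskolin 1. The filter thus favoured this order for them, and nothing is read from it there.

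Signals that act on melanocytes were tested in 8 cases, of which 5 were higher with forskolin and 4 with cAMP as deposited (62.5% and 50%), near or below the share of all genes. Kitl, the ligand of Kit made by keratinocytes and dermal cells, was at 2.45 and 1.83 CPM with forskolin and 1.53 and 1.73 CPM with cAMP, against 2.02 CPM in the control. With size factors Kitl was lower with forskolin (-1.53, limma adjusted p = 0.0362) and with cAMP (-1.74, limma adjusted p = 0.0187), and its difference was 0.05 and -0.20 as deposited. Atrn, a membrane protein needed for agouti signalling, was higher on both scales in both comparisons, and Bmp4 was lower with cAMP with size factors (-2.28, limma adjusted p = 0.00385). Pomc, the precursor of the melanocortins, did not exceed 0.527 CPM, and Asip was not listed under that symbol.

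In the cAMP route from Mc1r to Mitf, 21 of 22 tested genes were higher with forskolin and 19 with cAMP as deposited, or 95.5% and 86.4%, beside 66.3% and 65.1% of all genes. With size factors 3 were higher with forskolin, Adcy3, Creb1 and Pde4b, and 2 with cAMP, Adcy3 and Pde4b, and none lower. These are 13.6% and 9.09%, beside 14.4% and 14.8% of all genes called higher. Creb1 was at 27.9 and 19.0 CPM with forskolin and 16.8 and 14.3 CPM with cAMP, against 1.58 CPM in the control, and with size factors the difference was 1.58 with forskolin (limma adjusted p = 0.0121) and 1.05 with cAMP (limma adjusted p = 0.0726). Adcy3, an adenylyl cyclase, was at 8.08 and 9.9 CPM with forskolin and 6.38 and 4.2 CPM with cAMP, against 0 reads in the control. It reached 1 CPM only in treated libraries and entered the test through them, so nothing is read from its calls. Pde4b, a phosphodiesterase that breaks down cAMP, rose with size factors by 1.28 with forskolin (limma adjusted p = 0.0399) and by 1.74 with cAMP (limma adjusted p = 0.00802). Between forskolin and cAMP no gene of these lists passed on either scale, apart from 2 dermal markers, Col1a2 and Col3a1, lower with forskolin as deposited.

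The genes whose profile over the 5 libraries lay closest to a pigment gene were found among tested genes of like mean, by Euclidean distance between centred log2(CPM + 1) values. For Dct they were Oxct1 (0.51), Nomo1 (0.53) and Endod1 (0.58) of 1340 compared. For Tyrp1 they were Hlcs (0.41), Tmem135 (0.41) and Zfp503 (0.42) of 4775, and for Pmel Zfp503 (0.71), Rassf10 (0.75) and Pisd-ps2 (0.77) of 4327. None of these belongs to the lists of pigment genes used here, and with 5 libraries such distances describe likeness only.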

How the data were processed

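RNA from total dorsal epidermis was sequenced in 5 libraries (2 forskolin, 2 cAMP, 1 control). The submitters' processing notes name STAR, Partek and bcl2fastq 2.17. Their order and settings, the genome build and the annotation are not given in the sources used here. For 59869 transcripts, the authors deposited CPM, a unit read from the values, and its columns summed to 805255.8 to 947144.3 with a small offset in place of 0. If the offset stood for 0.0001 read, depth was 34200000 to 51700000 reads. Gene sums near whole reads (within 0.1) made up 59.6% to 75.7% of low values, so whole reads were not recovered and no count model was run. The library codes of the columns were matched to the sample descriptions by prefix and number.

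Transcripts were summed per gene ID, whereas the test was planned for a gene table, and 3 entries without an ID (at most 0.0679% of a library) were left out. Coordinates are those of the deposited table with the end corrected by 1 base. Of its transcripts, 98.3% were in GENCODE M21 on GRCm38, and 90.7% of those had the same coordinates there. A single fit of the 3 groups and 5 libraries was made for 13764 genes on log2(CPM + 1) in limma 3.58.1 (R 4.3.3, trended prior), 2-sided, with Benjamini-Hochberg adjustment at 0.05. Residual degrees of freedom were 2 and prior ones 360.2 (15.7 with size factors), so that the trend over all genes set most of the spread. Since separate animals are not stated, p-values measure the spread of these libraries alone, and it may be technical. The script was run on simulated data in which some genes were changed by known amounts. Those data held no table-wide shift of the control and no size factors, so the run says nothing of the calls against this control.

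Size factors came from 11512 genes above 0.05 CPM in every library. Alternatives were scaling to nuclear genes, pseudocounts of 0.1 and 5, no filter, coding transcripts only, leaving out each treated library and, between treatments, the replicate number as a block. Same-numbered libraries correlated at -0.05 across genes in their deviations from the group means, and no label pairs them. The genes, lists and tests were chosen with earlier results of these data known. The genes named were the 10 symbols, the 3 members of a list with the smallest p where described, 15 further genes wherever listed, transcripts with at least 10% of a gene's sum, and the 3 nearest profiles of Dct, Pmel and Tyrp1, and the text uses a part of these. Some of the genes so named are not reported here.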

Additional observations from a re-analysis of the deposited data

How the results depend on the processing

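Scaling changed most calls against the control. With size factors or scaling to nuclear genes, 0 of 10 tested IDs were called with forskolin, against 5 as deposited, and 2 with cAMP, against 5. Without the filter on low values 3 were called with forskolin (Tyrp1, Dct and Mitf) and 4 with cAMP, while pseudocounts of 0.1 and 5 and coding transcripts gave 5 with forskolin and 5 or 6 with cAMP. Leaving out 1 treated library in turn gave 2 to 5 calls with forskolin as deposited and 0 to 2 with size factors, and 4 to 5 with cAMP as deposited and 0 to 3 with size factors, where no call was left without cAMP 1 or without cAMP 2. Between the treatments the count stayed at 0 as deposited, with either other scaling and in each of the other settings, except that it was 0 to 3 with size factors and a library left out. The alternatives with size factors and a library left out, and that with no control library, were chosen after seeing the data.

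Signs reversed for Tyr, Mlana, Kit and Mc1r. For forskolin against control, size factors and nuclear scaling gave -1.2 and -1.12 for Tyr, -0.77 and -0.68 for Mlana, -0.20 and -0.08 for Kit and -0.55 and -0.51 for Mc1r, which was also at -0.11 with a pseudocount of 0.1. For cAMP against control they gave -0.26 and -0.21 for Tyr, -0.30 and -0.25 for Mlana, -0.33 and -0.27 for Kit and -0.27 and -0.24 for Mc1r. The cause was not tested.

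With 1 treated library left out, the log2 difference for forskolin against control ran from -0.61 to 1.13 for Tyr and -0.38 to 0.72 for Mc1r as deposited, and from -2.0 to -0.40 for Tyr, -0.10 to 1.11 for Tyrp1, -0.04 to 1.23 for Dct, -0.56 to 1.66 for Pmel, -0.96 to -0.58 for Mlana, -0.72 to 0.33 for Kit and -1.0 to -0.09 for Mc1r with size factors. For cAMP against control it ran from -0.73 to 0.20 for Tyr, -0.44 to -0.16 for Mlana, -0.75 to 0.09 for Kit and -0.33 to -0.21 for Mc1r with size factors. Between forskolin and cAMP it ran from -1.96 to 0.20 for Pmel, -0.34 to 0.18 for Mitf, -0.34 to 0.63 for Kit, -0.92 to 0.19 for Mc1r and -0.97 to 0.14 for the second Slc45a2 ID as deposited, and from -1.98 to 0.24 for Pmel, -0.41 to 0.23 for Mitf, -0.39 to 0.66 for Kit, -0.73 to 0.18 for Mc1r and -1.0 to 0.19 for the second Slc45a2 ID with size factors. There Mitf turned positive without forskolin 1 (0.21) and Kit negative without cAMP 1 (-0.28).

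The replicate numbers do not pair the libraries by any label. With the replicate number as a block, 0 of 10 tested IDs were called between forskolin and cAMP, as deposited and with size factors. No paired analysis was possible against the control because it has 1 library.

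With 1 control library, no value against it has a spread of its own. Genes near 1 read, such as Mc1r and Oca2 in forskolin 1, are limited by depth.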
